A study of Mus musculus with 12 samples.

Results

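c-Myc is a basic helix-loop-helix transcription factor that binds DNA as a partner of Max, most often at the E-box, and it is known for raising the genes of ribosome production, nucleotide synthesis and cell division. Osteoblasts are the secretory cells that lay down bone. Most of their output is type I collagen, with the enzymes that fold and crosslink it, proteoglycans and the proteins that bind mineral. *Osx* (*Sp7*) is a transcription factor needed for an osteoblast to form, and the metaphysis is the zone below the growth plate where a growing bone gains most of its trabecular bone.

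The comparison described here is c-Myc induction against juvenile *Osx*+ osteoblasts, across all genes that passed an expression filter. It used 6 of the 12 bulk RNA-seq libraries of the series, 2 from c-Myc mice and 4 from juvenile mice, and 12588 of the 32288 genes and transgenes in the count table were tested. The study made these mice to ask how juvenile metaphyseal osteoblasts respond to an oncogene. Juvenile mice carried *Osx-CreERT2* and *mTmG*, were 3 weeks old, had received tamoxifen and were male, with 2 pooled for each library. The c-Myc mice carried *LSL-tTA* and *Col1a1::TetO–c-Myc* in addition to those alleles, were of both sexes, and were collected 7 days after tamoxifen. Their libraries are titled 3 weeks, while the dissection text gives 5 weeks for this genotype. The shaft was cut about 2 mm from the growth plate in juvenile and about 5 mm from it in c-Myc mice. In *mTmG* mice tamoxifen turns on membrane GFP in *Osx*-expressing cells and their progeny. In c-Myc mice the recombination also turned on tTA, which drives the c-Myc transgene placed at the *Col1a1* locus when tetracycline is absent. Cells were sorted as mGFP+ and negative for CD31, CD45 and TER119. A further 2 libraries, which also carried *Trp53-LSL-R172H*, entered the fit to help estimate the spread. In the study, juvenile cells were collected 2 days after the last of 3 daily tamoxifen treatments, and c-Myc cells 7 days after 2. Mice with the tTA system, or pregnant females, also drank doxycycline or tetracycline, which was stopped before analysis. Genotype, age, sex, pooling, length of the cut, tamoxifen treatments, time after tamoxifen and these drugs changed together. Their parts in any difference cannot be told apart. The number of mice behind each c-Myc library was not given in the sources used here, and p-values measure the spread between these libraries.

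Total counts were between 10256521 and 12648874 in juvenile libraries and were 15684412 and 13779052 in c-Myc libraries. The most abundant genes took very different shares of them, as the plot of shares of counts shows. *Col1a1* and *Col1a2*, the 2 chains of type I collagen, took 53.3 ± 3.82% (SD, n = 4) of juvenile counts and 15.2 ± 2.12% (SD, n = 2) of c-Myc counts. *Gm26917* and *Gm42418*, which are known to collect reads of ribosomal RNA, took 8.89 ± 0.59% and 32.8 ± 1.23%. Genes of the growth lists described below took 2.49 ± 0.376% and 8.51 ± 0.891%. The groups did not overlap in any of these shares (exact permutation test, two-sided, 15 splits, p = 0.133 for each of 8 such measures and adjusted p = 0.133, the smallest p that 4 against 2 libraries allow when the smaller tail is doubled). Levels below are therefore CPM, counts scaled to a common library total, after TMM, a method that sets the bulk of genes level between libraries. A log2 fold change is c-Myc minus juvenile and carries its SE after the ± sign.

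**Figure D1:**
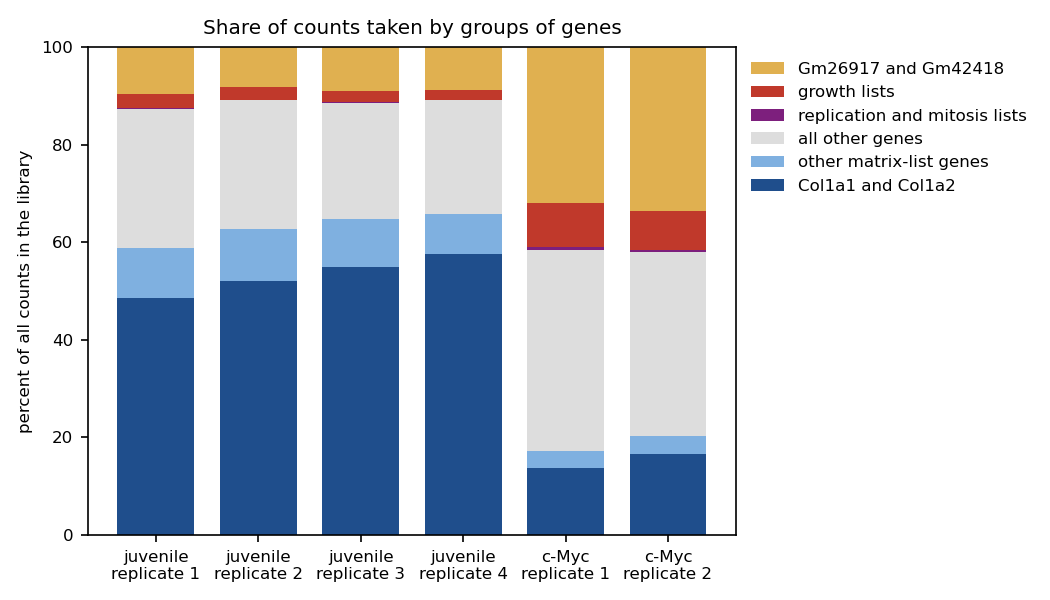
Share of all counts, in percent, taken by groups of genes in each juvenile and c-Myc library, 1 bar per library. *Col1a1* and *Col1a2* take 48.6 to 57.5% of juvenile counts and 15.2% on average of c-Myc counts, while *Gm26917* and *Gm42418* go from 8.89 to 32.8%.

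Ribosome, nucleotide and cell cycle genes rose with c-Myc, and bone matrix and cartilage genes fell. In bulk libraries, a change in the number of cells of a type and a change of RNA per cell cannot be told apart. In all, 2320 genes were called higher (18.4% of genes tested) and 2010 lower (16.0%), or 34.4% in either direction. A call needed an adjusted p under 0.05 in edgeR's quasi-likelihood test with Benjamini-Hochberg adjustment and a log2 fold change of 1 or more in size. On the p alone, 28.4% were higher and 25.0% lower, 53.4% together. The median log2 fold change of all genes tested was 0.04, and 949 of the higher and 724 of the lower genes passed an absolute log2 fold change of 2. Scaled by library totals instead, the median of all genes moved to 0.87, and 5234 genes were higher and 700 lower, 88.2% of calls against 53.6%, with all 700 among the 2010. Of the lower genes named below, that scaling ended the calls of *Mxd4*, *Mxd1*, *Sat1*, *Scd1*, *Pmaip1*, *Btg2*, *Bmf*, *Hmgn3*, *Alpl*, *Serpinh1*, *Col5a3*, *Col6a3*, *Creb3l1*, *Xbp1*, *Creb3l2*, *P4hb*, *Hhip*, *Fgfr1*, *Pth1r*, *Gja1*, *Slc6a9*, *Trp53inp2* and *H2-D1*, whose log2 fold changes there were still negative. Directions below are relative to the bulk of genes for that reason. The losses reached further into genes with many counts. Of the 795 genes with a mean over 100 CPM, 31.9% were called lower and 14.0% higher, while of the 4128 genes between 5 and 20 CPM 15.8% were lower and 22.5% higher. Of all tested genes, 64.5% had no overlap between the libraries of the groups, and among genes called, all 2320 higher and 1953 of the 2010 lower genes had none. On 1 scale for all 12 libraries, 2163 of the higher genes (93.2%) lay above every juvenile and every 8-week-old adult library. Likewise 1788 of the lower genes (89.0%) lay below all of them. Among all genes tested the shares were 29.2% above and 23.0% below. The calls were made from the same juvenile libraries, so the shares of called genes are in part fixed by the calls.

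**Figure D2:**
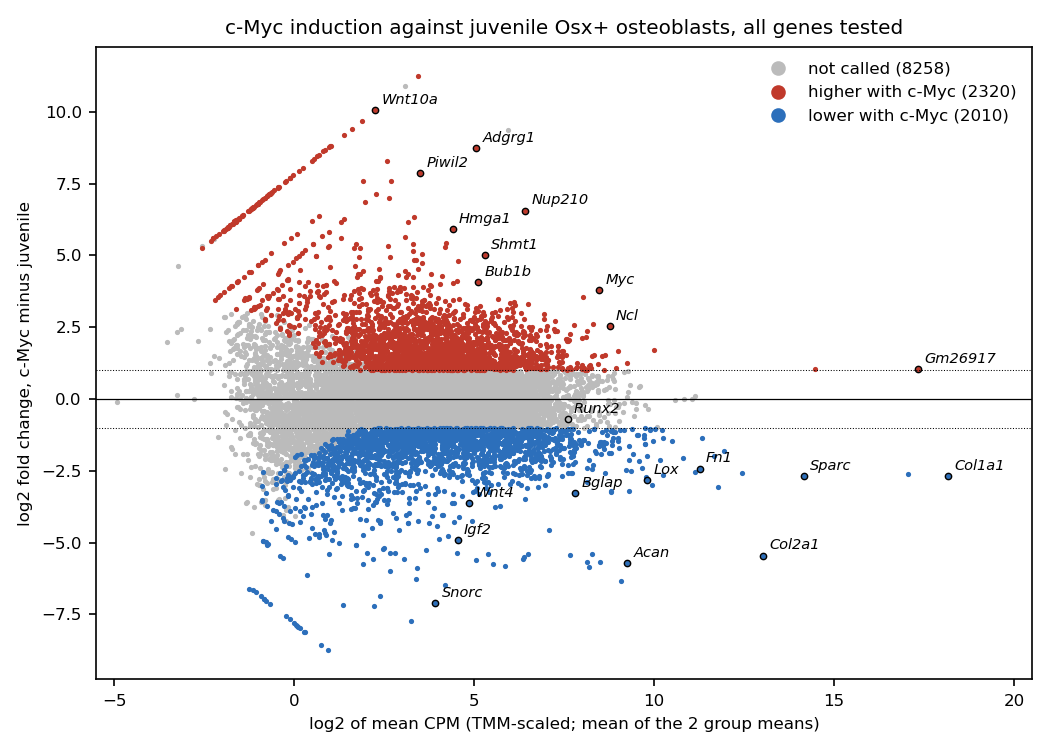
Each point is a gene tested, with the log2 of its mean CPM on the x axis and the log2 fold change, c-Myc minus juvenile, on the y axis. Red marks the 2320 genes higher, blue the 2010 lower and grey the rest, and dotted lines mark the fold required for a call. Points on the slanted lines at the left are genes with few or 0 counts in 1 group, whose fitted change depends on the prior count.

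*Myc* itself (chr15:61985391-61990374 on GRCm38, plus strand) was at 47.3, 55.1, 41.6 and 49.5 CPM in the 4 juvenile libraries and at 645 and 686 CPM in the 2 c-Myc libraries. The groups were far apart and each was tight, a log2 fold change of 3.78 ± 0.11 (adjusted p = 2.07e-09). Reads of the transgene and of the endogenous gene cannot be told apart in these counts. The reporter *EGFP*, by which the cells were sorted, was at 304, 473, 599 and 483 CPM in juvenile and 419 and 397 CPM in c-Myc libraries, ranges that overlapped (log2 fold change -0.19, or 0.67 by library totals). *CreERT2*, placed at the *Sp7* locus, and *Sp7* were both past the p threshold but under the fold required, with log2 fold changes of -0.89 ± 0.14 (adjusted p = 0.000191) and -0.81 ± 0.10 (adjusted p = 2.51e-05), the latter 0.02 by library totals. The tdTomato entry, the mTmG colour before recombination, rose from levels between 0.727 and 9.26 CPM to 35.7 and 34.2 CPM. The c-Myc transgene carries mCherry, another red fluorescent protein, and whether its reads reached that entry was not tested. In the 2 libraries that also carried *Trp53-LSL-R172H*, set against the same juvenile libraries, the log2 fold change of *Myc* was 3.92, beside 3.78 here.

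Among Myc's relatives, *Mxd4* and *Mxd1*, whose products compete with Myc for Max and repress its targets, fell. *Mxd4* went from 226, 251, 241 and 257 CPM to 79.9 and 80.4 CPM, a log2 fold change of -1.60 ± 0.09 (adjusted p = 5.52e-08), and *Mxd1* fell (-1.25). *Mlxipl*, which encodes the carbohydrate-sensing factor ChREBP, rose from 0 in 3 juvenile libraries and 0.13 CPM in the fourth to 7.41 and 7.51 CPM. Of the 13 tested members of this network 2 were higher and 2 lower, with a median of 0.20. These shares were near those of all genes tested, 18.4% and 16.0%.

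Ribosome production rose broadly. Of 63 tested genes of ribosome biogenesis and RNA polymerase I, 56 were called higher and 0 lower, every one had a positive log2 fold change, 61 passed on the p alone, and the median was 2.05 (0.04 over all genes). Nucleolin, encoded by *Ncl*, coats ribosomal RNA as it is transcribed. *Ncl* was at 153, 139.5, 101 and 119 CPM in juvenile and 749 and 732 CPM in c-Myc libraries, so that both c-Myc libraries were far above the highest juvenile one. *Npm1*, a nucleolar chaperone, went from 96.2, 103, 91.8 and 67.1 CPM to 558 and 530.3 CPM. Their log2 fold changes were 2.53 ± 0.13 (adjusted p = 2.26e-08) and 2.60 ± 0.13 (adjusted p = 2.06e-08). *Fbl*, which methylates ribosomal RNA, *Nop56*, its partner on small nucleolar RNAs, and *Polr1b*, the second-largest subunit of RNA polymerase I, rose by 2.59, 2.22 and 2.31 on the log2 scale, with no overlap between groups. The largest gain of the list was that of *Noc4l*, a maturation factor of the small subunit, from levels between 2.74 and 7.21 CPM to 39.8 and 36.5 CPM.

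Most of the ribosome's own proteins were under the fold required. Of 79 cytosolic ribosomal protein genes 67 passed on the p alone with a positive log2 fold change, but 6 were called higher and 0 lower, with a median of 0.61. By library totals 72 were higher, with a median of 1.45. *Rpl4*, the one with the most counts, was at 708, 676, 635 and 622 CPM and then 934 and 856 CPM, a log2 fold change of 0.44 ± 0.08 (adjusted p = 0.000609), under the fold required. Mitochondrial ribosomal proteins had 42 of 62 called higher and a median of 1.20. Translation initiation factors had 17 of 37 higher with a median of 0.96, among them *Eif2s1*, the alpha subunit of eIF2, at 10.0 to 15.9 CPM in juvenile and 56.4 and 54.3 CPM in c-Myc libraries. *Eif4g1*, the scaffold of the cap-binding complex, was at 507 to 603 CPM in juvenile and 737 and 759.6 CPM in c-Myc libraries, under the fold required. Of 22 aminoacyl-tRNA synthetases, which charge tRNAs, 9 were higher, and *Vars*, for valine, rose most, by 2.07. None of these lists had a member called lower.

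Sequence at the start sites of genes was examined where a list was well enough covered by RefSeq promoter windows on GRCm38.p6, from 250 bases before to 50 bases after the start. A window was matched for 81.2% of genes higher and for 78.9% of genes tested, but for only 75.4% of genes lower, so that no share is given for the lower genes. The E-box CACGTG, which reads the same on both strands, was in 7.24% of all 27025 windows, in 10.5% of those of genes tested, in 12.8% of the 1883 windows of higher genes and in 12 of 57 windows (21.1%) of the ribosome biogenesis list. Counted before the start site alone, the last share was 7.02%, since 8 of those 12 genes had their first match only in the 50 bases after it. Counted that way, the share was 8.66% for genes tested and 9.61% for higher genes, both above that of the list. Over the whole window, with CACGCG counted as well, the share of the list was 50.9%, against 26.8% for genes tested and 31.7% for higher genes. Examples are printed with the E-box on either side of the start site. Each is 30 bases on the gene's strand, read 5′ to 3′. Capitals mark the E-box, and the position given is that of its first base, counted with 1 as the first transcribed base.
*Nop2*, chr6:125131811-125131840, plus strand, at -60: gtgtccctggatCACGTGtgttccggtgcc
*Pes1*, chr11:3963965-3963994, plus strand, at 3: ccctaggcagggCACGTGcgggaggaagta
*Nle1*, chr11:82908355-82908384, minus strand, at 24: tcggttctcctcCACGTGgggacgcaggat
*Utp20*, chr10:88826765-88826794, minus strand, at 38: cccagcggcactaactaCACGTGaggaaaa
*Mybbp1a*, chr11:72441347-72441376, plus strand, at 41: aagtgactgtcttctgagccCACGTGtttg
*Hspd1*, chr1:55088306-55088335, minus strand, at -80: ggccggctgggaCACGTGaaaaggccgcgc
*Cdk4*, chr10:127063351-127063380, plus strand, at -172: atggcagccagtCACGTGccacacagcgta
*Nme1*, chr11:93968273-93968302, minus strand, at -18: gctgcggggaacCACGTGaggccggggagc
*Mxd4*, chr5:34187912-34187941, minus strand, at -219: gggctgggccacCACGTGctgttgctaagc
*Nop2*, *Pes1*, *Nle1*, *Utp20* and *Mybbp1a* act in ribosome assembly and had log2 fold changes of 2.23, 1.74, 2.61, 2.56 and 2.35. *Hspd1* and *Cdk4* were higher too. *Nme1*, a nucleoside diphosphate kinase, has an E-box close to its start and was under the fold required, at 71.0 to 94.9 CPM in juvenile and 142 and 127 CPM in c-Myc libraries. *Mxd4* has one and was lower. A match is only a run of letters, and binding was not measured in these data.

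**Figure D3:**
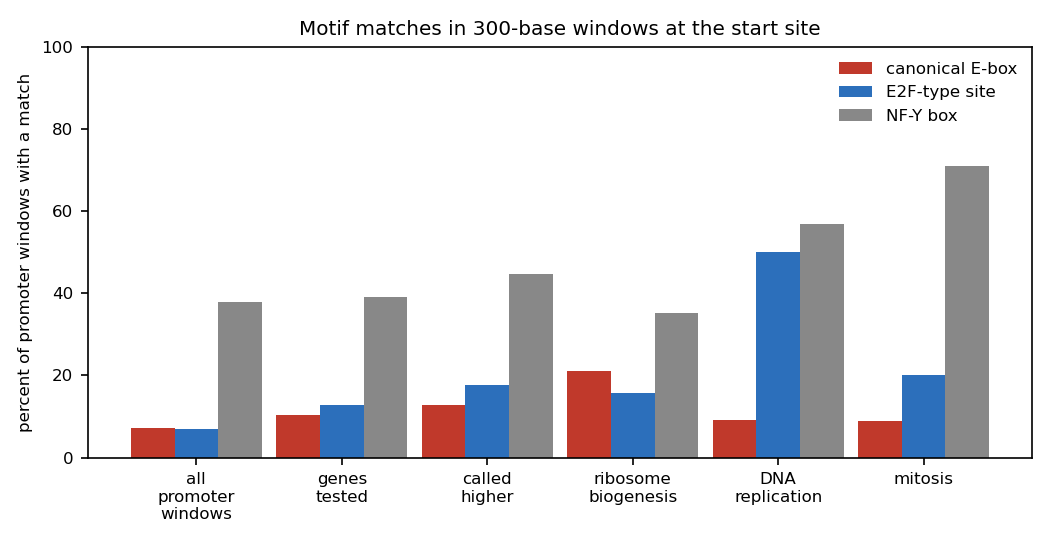
Percent of 300-base promoter windows that hold a match to the canonical E-box, to an E2F-type site or to the NF-Y box, for all windows, for genes tested, for genes called higher and for 3 gene lists. The ribosome biogenesis list has the highest E-box share (21.1%), DNA replication the highest E2F-type share (50.0%) and mitosis the highest NF-Y box share (71.1%).

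Most genes of nucleotide and one-carbon metabolism rose. Of 36 tested members 31 were higher and 0 lower, with a median of 2.18. *Shmt1*, which moves a one-carbon unit from serine to folate, went from 1.46, 1.20, 3.05 and 4.04 CPM to 85.3 and 65.8 CPM, a log2 fold change of 5.02 ± 0.27 (adjusted p = 3.33e-08). *Cad*, whose product starts pyrimidine synthesis, went from levels between 152 and 170.2 CPM to 456 and 448 CPM. Outside the list *Dnph1*, a nucleotide hydrolase, rose from levels between 0 and 1.52 CPM to 23.5 and 21.6 CPM.

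Amino acid supply moved in both directions. Of 24 transporters and enzymes of glutamine use 15 were higher and 2 lower, with a median of 1.50. *Slc38a1*, a glutamine transporter, rose from 1.17, 1.63, 0 and 0.261 CPM to 36.4 and 36.1 CPM, whereas *Slc38a2*, a near relative, was at 264 to 342 CPM in juvenile and 198 and 199.9 CPM in c-Myc libraries, under the fold required and negative (-0.58, or 0.26 by library totals). The list's lower members were *Slc6a9*, a glycine transporter, and *Pycr1*, which makes proline. *Pycr1* went from 74.4, 78.8, 102 and 79.2 CPM to 20.0 and 22.2 CPM, a log2 fold change of -1.99 ± 0.16 (adjusted p = 6.56e-07), while *Prodh*, which breaks proline down, rose from levels between 0 and 2.62 CPM to 20.4 and 20.6 CPM. Proline is a main residue of collagen. *Cth*, the last enzyme of cysteine synthesis, was at 0 in all juvenile libraries and at 3.54 and 2.07 CPM in c-Myc libraries, at least 6.43-fold higher when the juvenile group is set at 3 counts per library.

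Polyamines, small cations needed for growth, were also split. *Odc1*, *Srm* and *Sms*, the enzymes that build putrescine, spermidine and spermine, rose by 1.65, 1.30 and 2.73 on the log2 scale. *Odc1* was at 55.8 to 72.8 CPM in juvenile and 202 and 185 CPM in c-Myc libraries. *Smox* and *Sat1*, which oxidize and acetylate polyamines for breakdown, fell (-2.34 and -1.06). In all, 5 of 11 members were higher and 2 lower, and the median of 0.24 does not describe either side. The call of *Sat1* was lost without juvenile replicate 4, where its log2 fold change was -0.99, and with the replicate number as a block, where it was -0.94.

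Most chaperones of the cytosol and mitochondria rose, and so did most genes of the nuclear pore. Of 29 chaperones 25 were higher with a median of 1.70. *Hspd1* (mitochondrial Hsp60) went from 47.8, 45.2, 41.0 and 30.5 CPM to 471 and 483 CPM, a log2 fold change of 3.53 ± 0.13 (adjusted p = 6.34e-09). *Hsp90ab1* and *Hspa8*, the constitutive cytosolic Hsp90 and Hsp70, rose by 1.70 and 1.69 and were among the 6 genes with the largest gains in mean CPM. Of 38 nuclear transport genes 31 were higher with a median of 1.59. *Nup210*, a membrane nucleoporin expressed in some cell types, was nearly off in juvenile libraries, at 2.34, 2.39, 1.45 and 0.651 CPM, and reached 173 and 165 CPM, a log2 fold change of 6.56 ± 0.21 (adjusted p = 2.19e-09). *Kpnb1*, importin beta, which is always present, went from levels between 156 and 175 CPM to 469.8 and 478 CPM. Splicing factors had 39 of 50 higher with a median of 1.23, and *Snrpd2*, a core protein of the spliceosome, rose most, by 2.40. Proteasome subunits had 12 of 33 higher with a median of 0.81.

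Energy metabolism held both called and uncalled genes. Of 64 oxidative phosphorylation subunits encoded in the nucleus 13 were higher, a share near that of all genes tested, and 1 lower, with a median of 0.66. By library totals 55 were higher. *Atp5b*, a subunit of ATP synthase, was at 384 to 459 CPM in juvenile and 857 and 784 CPM in c-Myc libraries, just under the fold required, which it passed without c-Myc replicate 2 (1.04) or juvenile replicate 1 (1.01). *Cycs*, cytochrome c, rose by 2.47. Of the 7 mitochondrially encoded genes that were tested 1 was higher, *mt-Nd6*, and the median was -0.68. The call of *mt-Nd6* was lost without c-Myc replicate 2, at 0.85. Of 23 glycolysis genes 11 were higher with a median of 0.96. *Eno1*, enolase, went from 88.8, 78.0, 74.3 and 51.5 CPM to 330.5 and 288 CPM, and *Pkm*, pyruvate kinase, from levels between 307 and 454 CPM to 875 and 827 CPM. Cholesterol and fatty acid synthesis had 4 of 28 higher and 1 lower, shares below the 18.4% and 16.0% of all genes tested. Its median was -0.09, which library totals turned to 0.75. Its members did not move as 1 group, for *Elovl6*, an elongase, rose by 2.45 and *Scd1*, a desaturase, fell (-1.14). The *Scd1* value was -0.996 without juvenile replicate 3 and -0.95 with the replicate block, neither of them a call.

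Cell division was the other large gain. Of 54 DNA replication genes 46 were higher, and of 54 genes of mitosis 51, with medians of 2.37 and 2.31 and none lower in either list. All 108 log2 fold changes were positive. *Mcm5*, part of the replicative helicase, was at 15.3, 11.4, 18.7 and 2.61 CPM in juvenile libraries, lowest in replicate 4, and at 135 and 118 CPM in c-Myc libraries, a log2 fold change of 3.39 ± 0.47 (adjusted p = 0.000617). *Bub1b*, of the spindle checkpoint, went from 4.39, 3.59, 3.05 and 4.43 CPM to 68.4 and 61.7 CPM, a log2 fold change of 4.06 ± 0.15 (adjusted p = 6.34e-09). *Mki67*, a marker of cycling cells, was already at 27.0 to 47.5 CPM in juvenile libraries and reached 171 and 176 CPM. *Dna2*, a nuclease of replication and repair, rose by 3.73.

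Promoter windows of these lists were searched as well. An E2F-type site, TTCCCGC or TTGGCGC on either strand, was in 50.0% of 44 DNA replication windows, against 6.93% of all windows, 12.9% of those of genes tested and 17.7% of the windows of higher genes. The CCAAT box, bound by NF-Y, was in 71.1% of 45 mitosis windows on either strand, against 37.9% of all windows and 39.1% of those of genes tested. The E-box was in 9.09% of the replication and 8.89% of the mitosis windows.

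The switches of the cycle were mixed. Of 29 CDK inhibitors, D cyclins and E2F network members 13 were higher and 1 lower. *Ccne1*, cyclin E1, which drives entry into S phase, went from 1.56, 1.31, 4.65 and 1.69 CPM to 20.9 and 21.2 CPM, a log2 fold change of 3.25 ± 0.35 (adjusted p = 7.38e-06). *Cdk4* and *Ccnd1* rose by 1.23 and 1.48, while *Ccnd2*, cyclin D2, was at 164, 138, 150.3 and 204 CPM and 164 and 154 CPM and overlapped (log2 fold change -0.04, or 0.8 by library totals). The inhibitor that fell was *Cdkn1c* (p57), an imprinted gene, from 75.7, 92.0, 56.2 and 29.1 CPM to 6.28 and 6.50 CPM, a log2 fold change of -3.31 ± 0.39 (adjusted p = 2.05e-05). *Cdkn1a* (p21) overlapped, at 175, 212, 217 and 198 CPM in juvenile and 198 and 206 CPM in c-Myc libraries, a log2 fold change of 0.01 ± 0.10 (adjusted p = 0.939). *Cdkn2a*, the Ink4a/Arf locus, rose from 3.70, 0.326, 1.89 and 0 CPM to 8.26 and 5.50 CPM. That call was lost without either c-Myc library (adjusted p = 0.151 and 0.0515) and with DESeq2 (0.165).

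Targets of p53 were split as well, 16 of 40 higher and 3 lower, with a median of 0.84. *Trp53* itself rose from levels between 21.0 and 27.5 CPM to 67.4 and 58.3 CPM. *Bbc3* (PUMA), a killer protein of the BCL2 family, rose from 9.06, 7.73, 12.1 and 13.8 CPM to 27.1 and 31.8 CPM, while *Mdm2*, the ligase that degrades p53, was at 26.8 to 36.9 CPM in juvenile and 58.7 and 60.7 CPM in c-Myc libraries, under the fold required (0.93), which it passed with the replicate block (1.01). The largest gain of the list was that of *Psrc1*, which acts on spindle microtubules (4.10). The lower members were *Pmaip1* (NOXA), also a killer protein, at -1.68, *Trp53inp2*, an autophagy factor, at -1.65, and *Btg2*, an antiproliferative gene, at -1.43. The BCL2 family as a whole had 5 of 15 higher and 4 lower, with a median of -0.32 that library totals turned to 0.52. *Bid*, a BH3-only killer, rose by 2.96, and *Bmf*, of the same class, fell (-1.47). Repair and damage genes had 38 of 66 higher and 0 lower, with *Parp1*, a sensor of strand breaks, from levels between 33.9 and 43.6 CPM to 170.1 and 165 CPM and *Rad54l*, of homologous recombination, up by 4.23.

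Among chromatin genes 19 of 30 were higher and 1 lower. *Hmga1*, an architectural protein of embryonic and tumour chromatin, went from 0.39, 0.109, 1.31 and 1.17 CPM to 32.7 and 50.5 CPM, a log2 fold change of 5.91 ± 0.37 (adjusted p = 9.72e-08). *Hmga1b* was at 0 in all juvenile libraries and at 28.7 and 14.8 CPM in c-Myc libraries, at least 49.98-fold higher with the juvenile group set at the same floor. The sequences of *Hmga1* and *Hmga1b* are nearly the same, so the division of reads between them is uncertain. *Ezh2*, the methyltransferase of PRC2, rose by 1.25, and *Hmgn3*, a nucleosome-binding protein, fell (-1.60). Among genes that reached 20 CPM, the steepest gains included *Adgrg1*, an adhesion receptor (0 CPM in 3 juvenile libraries and 0.544 in the fourth, 61.8 and 70.5 CPM with c-Myc), and *Piwil2*, a germline Piwi protein (0 in 3 juvenile libraries, 0.292 in the fourth, 23.0 and 22.0 CPM). *Epha8*, an ephrin receptor, *Itga4*, the integrin alpha 4 chain, and *Abcb1b*, a drug efflux pump, rose by 4.81, 4.72 and 4.36.

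**Figure D4:**
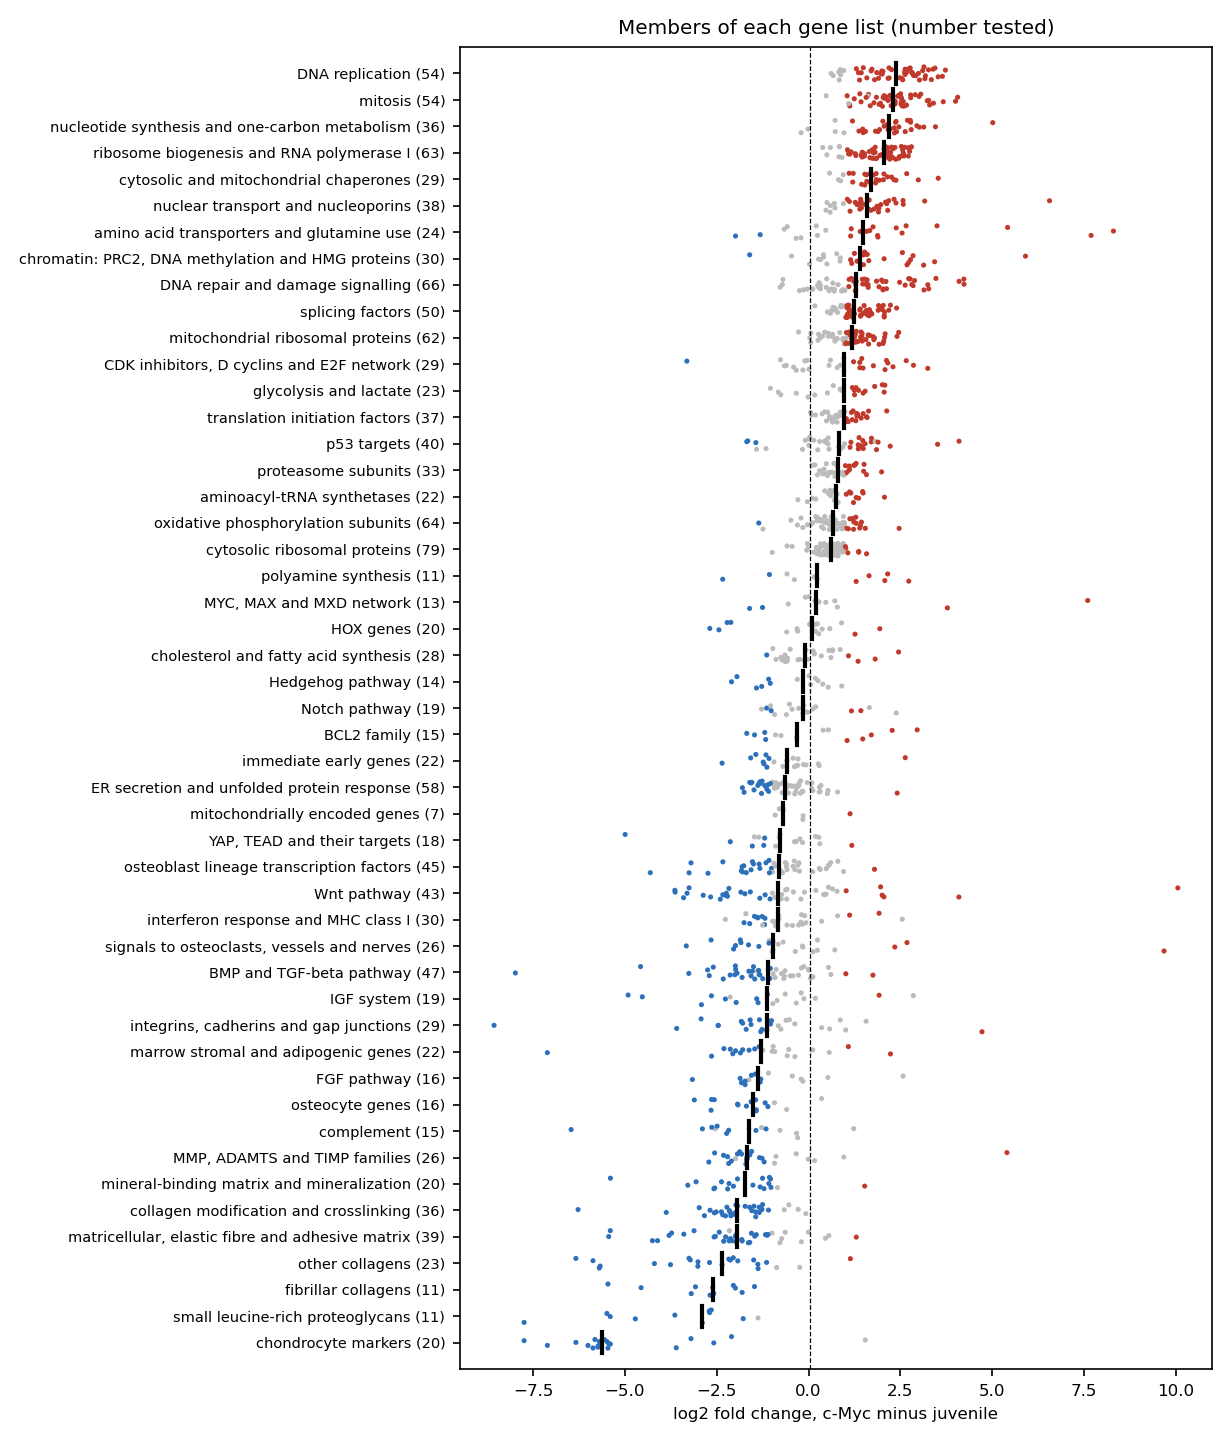
Log2 fold change, c-Myc minus juvenile, of every tested member of each gene list, with the number tested in brackets. Red points were called higher, blue lower and grey not called, black bars are list medians and the dashed line is the median of all genes, 0.04. Replication (median 2.37) and mitosis lie at the top and matrix and chondrocyte lists (median -5.61) at the bottom.

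Bone matrix made up the bulk of the loss in counts. Over 6 lists of matrix genes, 120 of 140 tested members were lower and 3 higher, with a median of -2.06, or 81 lower and 5 higher by library totals, and the share of all counts they took was 63.0 ± 3.06% (SD, n = 4) in juvenile and 18.7 ± 2.17% (SD, n = 2) in c-Myc libraries. The 6 lists also hold cartilage genes that are counted again among the chondrocyte markers below. *Col2a1* (-5.46), *Col10a1* (-6.33), *Epyc* (-7.74) and *Hapln1* (-5.44) are such genes, each the lowest of its matrix list. All 11 fibrillar collagens were lower, with a median of -2.61. *Col1a1* (chr11:94936224-94953042 on GRCm38, plus strand) was at 411730.0, 475288, 563179 and 593366 CPM in juvenile and 67682 and 91642 CPM in c-Myc libraries, a log2 fold change of -2.68 ± 0.18 (adjusted p = 1.76e-07). *Col1a2*, on chromosome 6, went from 187706, 218436, 256353 and 279942 CPM to 33352 and 43932 CPM, with -2.61 ± 0.18 (adjusted p = 1.85e-07). *Col11a1* and *Col11a2*, of the thin type XI fibrils, fell (-3.08 and -2.58). The smallest fall of the list was that of *Col5a3*, -1.47. Of 23 other collagens 20 were lower and 1 higher. *Col6a3*, of the beaded filaments, fell (-1.37), and *Col7a1*, of anchoring fibrils, was the higher one, at 1.27 to 2.08 CPM in juvenile and 3.30 and 3.78 CPM in c-Myc libraries. Its call was lost without either c-Myc library (adjusted p = 0.11 and 0.176) and under other settings.

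The machinery that makes collagen fell with it, 32 of 36 lower and 0 higher, with a median of -1.95. *Sparc* (osteonectin), which binds collagen and mineral, went from 26351, 30819, 33763 and 35468 CPM to 4434 and 5426 CPM, a log2 fold change of -2.68 ± 0.14 (adjusted p = 2.86e-08). *Lox*, which starts crosslinking, went from 1427, 1661, 1594 and 1571 CPM to 189 and 249.8 CPM, a log2 fold change of -2.83 ± 0.13 (adjusted p = 1.74e-08). *P4ha1*, a prolyl hydroxylase subunit, and *Serpinh1*, the collagen chaperone Hsp47, fell (-1.98 and -1.34). Both c-Myc libraries were below every juvenile one for each of these. Small leucine-rich proteoglycans, which set fibril size, had 10 of 11 lower with a median of -2.89. *Bgn*, *Dcn* and *Lum* (biglycan, decorin and lumican) fell (-2.65, -2.89 and -2.70), and *Dcn* was at 379.7, 455, 554 and 596 CPM in juvenile and 57.3 and 76.5 CPM in c-Myc libraries. Of 39 matricellular and adhesive genes 29 were lower and 1 higher, with a median of -1.96. *Fn1*, fibronectin, and *Postn*, periostin, fell (-2.43 and -2.08). *Lama5*, a basement membrane laminin, was the higher one, at 1.30 to 4.07 CPM in juvenile and 6.70 and 6.62 CPM in c-Myc libraries, a call that was lost without either c-Myc library or juvenile replicate 2 (adjusted p = 0.0516 to 0.109).

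Genes of mineral and of late osteoblasts fell, 18 of 20 lower and 1 higher, with a median of -1.72. By library totals 10 were lower and 1 higher, with a median of -0.90. *Spp1*, osteopontin, was at 4685, 4626, 2816 and 3388 CPM in juvenile and 702 and 621 CPM in c-Myc libraries, and *Ibsp*, bone sialoprotein, at 3459, 3602, 2335 and 1997 CPM and 623 and 759 CPM. Both groups were apart, with log2 fold changes of -2.55 ± 0.20 (adjusted p = 4.63e-07) and -2.04 ± 0.23 (adjusted p = 1.47e-05). *Bglap*, osteocalcin, a gene of mature osteoblasts, went from 262, 423, 492 and 442 CPM to 28.5 and 54.7 CPM, a log2 fold change of -3.29 ± 0.35 (adjusted p = 5.91e-05). *Alpl*, alkaline phosphatase, fell less (-1.25). *Slc20a1*, a phosphate transporter, was the higher one (1.53). *Bglap* reads cannot be divided with certainty from those of its near copies. Its promoter window holds the letters TATAAA 27 bases before the start, as do 2.88% of all windows in their last 50 bases before the start, and is printed here with those letters in capitals to set it beside the E-box windows above.
*Bglap*, chr3:88384476-88384505, minus strand: cagactagcggaTATAAAtgctactggacg

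Osteocyte genes had 13 of 16 lower and 0 higher with a median of -1.50, or 6 and 1 by library totals (median -0.67). *Dmp1*, a mineral regulator of osteocytes, went from 224, 303, 388 and 422 CPM to 106 and 70.7 CPM, a log2 fold change of -1.92 ± 0.25 (adjusted p = 5.21e-05), and *Phex*, which restrains FGF23, fell (-1.93). *Pdpn*, an early osteocyte protein of cell processes, fell most (-3.11). With the replicate number as a block, the adjusted p of *Dmp1* was 0.0527.

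Of 45 tested transcription factors of the osteoblast lineage, 19 were lower and 1 higher, with a median of -0.81. By library totals 5 were lower and 8 higher, with a median of 0.02. The lowest member, *Sox5*, went from 15.1, 13.2, 9.16 and 1.95 CPM to 0.614 and 0.355 CPM (-4.31). Its lowest juvenile library was replicate 4, as was that of the summed cartilage genes below. *Runx2*, a master factor of the lineage, was at 266, 241, 216 and 236 CPM in juvenile and 141 and 152 CPM in c-Myc libraries, apart but under the fold required, with a log2 fold change of -0.71 ± 0.10 (adjusted p = 6.49e-05) that library totals turned to 0.12, and *Dlx5* was likewise under it at -0.98. Outside the list *Creb3l1* (OASIS), which activates *Col1a1*, fell (-1.54). The higher one, *Msx2*, was at 0.581 to 2.61 CPM in juvenile and 3.12 and 5.26 CPM in c-Myc libraries and lost its call without c-Myc replicate 2 (adjusted p = 0.194).

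Genes of the secretory route depended on the scaling. Of 58 genes of ER secretion and the unfolded protein response 17 were lower and 1 higher, with a median of -0.63, and by library totals 0 were lower and 7 higher, with a median of 0.21. *Xbp1*, a driver of secretory capacity, went from 159, 156, 169.6 and 135 CPM to 43.7 and 48.2 CPM, a log2 fold change of -1.75 ± 0.12 (adjusted p = 1.84e-07). *Creb3l2*, a factor for coat proteins of ER export, and *P4hb*, the disulfide isomerase in prolyl hydroxylase, fell (-1.80 and -1.34). *Hspa5* (BiP), the main ER chaperone, overlapped, at 413, 411, 528 and 344 CPM and 388 and 439 CPM, and its log2 fold change of -0.03 was 0.8 by library totals. *Sdf2l1*, an ER protein induced by stress, was the higher one (2.41).

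**Figure D5:**
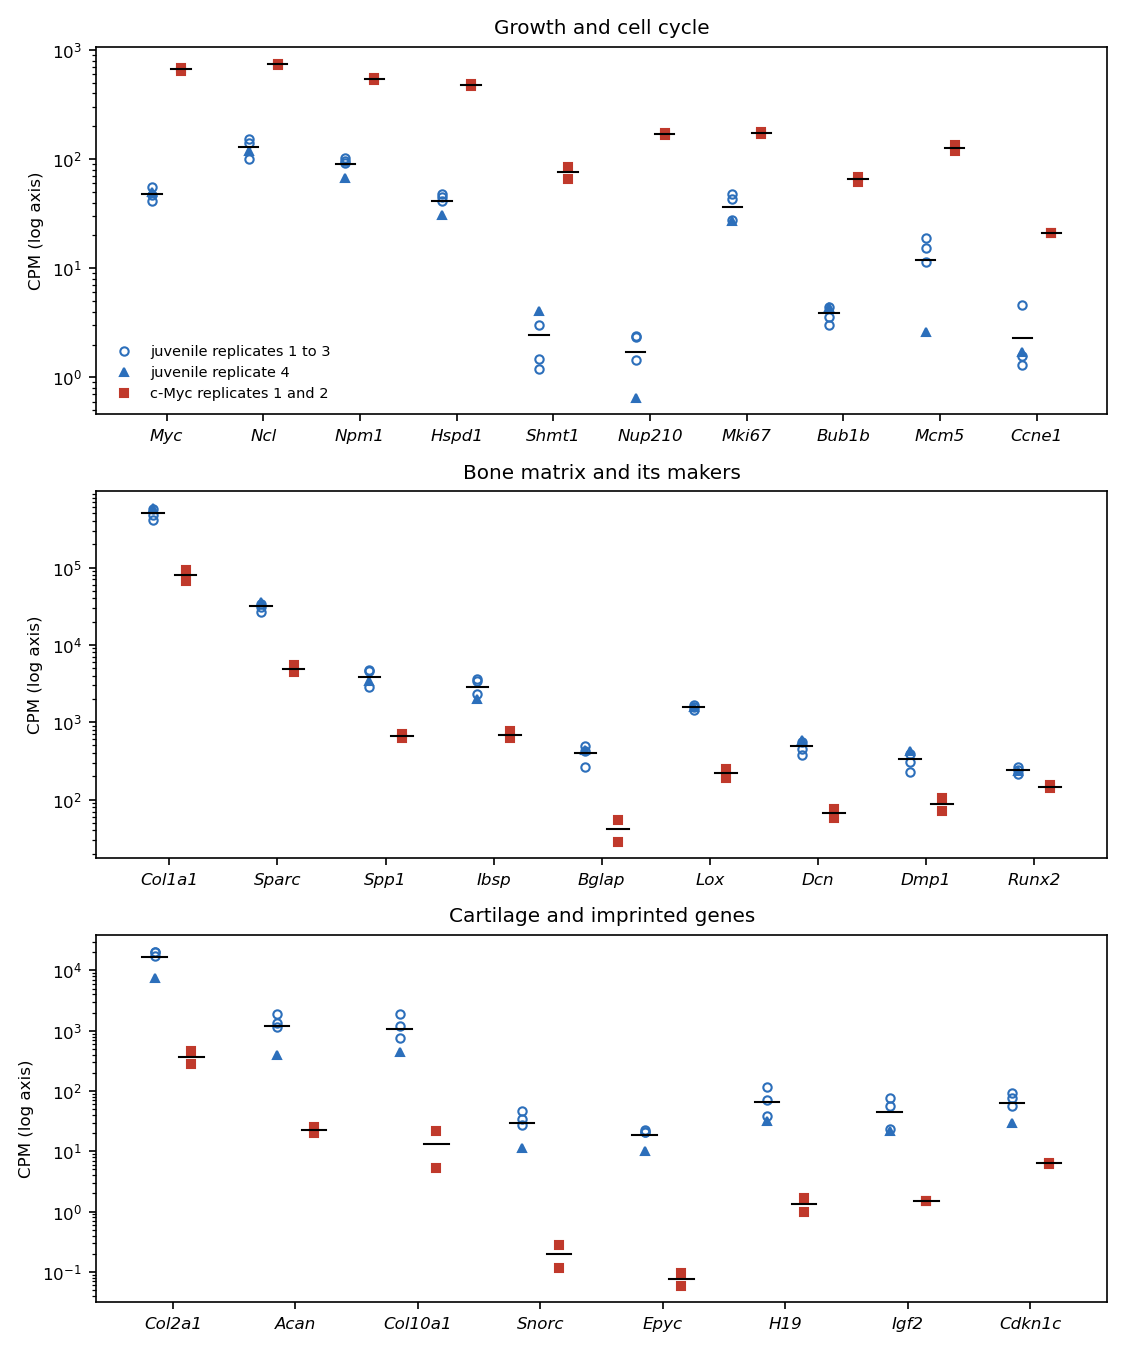
TMM-scaled CPM on a log axis for genes of growth and division, of bone matrix, and of cartilage and imprinted loci. Open circles and blue triangles are the 4 juvenile libraries, with replicate 4 as the triangle, red squares the 2 c-Myc libraries and bars the group means. In every gene shown both c-Myc libraries lie outside the juvenile range, and replicate 4 is the lowest juvenile library in each of the cartilage and imprinted genes.

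Enzymes that cut matrix fell along with matrix, 18 of 26 lower and 1 higher, or 8 and 2 by library totals (median -1.67, or -0.86). *Mmp13*, the collagenase of bone and cartilage, went from 761, 611, 417 and 536 CPM to 157 and 147 CPM, a log2 fold change of -1.93 ± 0.19 (adjusted p = 3.67e-06), and *Mmp2* and *Adamts15*, a gelatinase and a proteoglycan-cutting enzyme, fell (-2.17 and -2.71). *Adamts20* was the higher one, at 0.195 CPM in 1 juvenile library, 0 in the others and 2.78 and 2.84 CPM with c-Myc. *Ctsk*, cathepsin K, best known in osteoclasts, fell from levels between 132 and 155 CPM to 14.3 and 21.2 CPM. *Calcr*, *Ocstamp*, *Dcstamp* and *Atp6v0d2*, also osteoclast markers, were at 0 in all 6 libraries. Others of the 12 osteoclast markers were detected. *Mmp9* was at 65.3 to 207 CPM in juvenile and 68.2 and 84.5 CPM in c-Myc libraries. The markers, *Ctsk* included, summed to 259 to 410 CPM in juvenile and to 118 and 141 CPM in c-Myc libraries. The part of osteoclasts in these values was not tested.

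Cartilage genes had the lowest median of all lists, and among juvenile libraries their sum was lowest in replicate 4. Of 20 chondrocyte markers 19 were lower and 0 higher, with a median of -5.61. Some of these markers were also counted in the matrix lists above, and *Ihh* and *Snorc* in lists below, so the results are not separate. *Col2a1*, the main collagen of cartilage, was at 17557, 20356, 20457 and 7383 CPM in juvenile and 466 and 281 CPM in c-Myc libraries, a log2 fold change of -5.46 ± 0.58 (adjusted p = 0.000271). *Acan*, aggrecan, went from 1322, 1913, 1167 and 398 CPM to 25.1 and 20.1 CPM, with -5.73 ± 0.79 (adjusted p = 0.00146), and *Col10a1*, of hypertrophic chondrocytes, from 749.9, 1883, 1193 and 439 CPM to 5.33 and 21.5 CPM, with -6.33 ± 1.15 (adjusted p = 0.00566). *Snorc* and *Cnmd*, a proteoglycan and chondromodulin, fell (-7.11 and -5.81), and *Epyc*, epiphycan, went from 20.8, 23.0, 20.9 and 10.2 CPM to 3 counts in the 2 c-Myc libraries together. The markers summed to between 19800 and 38790 CPM in juvenile libraries and to 1959 and 2223 CPM in c-Myc libraries.

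These genes moved with the same groups as the bone matrix losses, and their part in them was not tested. Against juvenile replicate 4 alone, a setting added after seeing the data, the spread came from the other groups and the lone library was assumed to vary like them. The median of the chondrocyte markers was -4.24. The fibrillar collagens then had a median of -2.85 and the mineral genes one of -1.56. That setting called 2312 genes lower, of which 1718 were among the 2010. Among genes named here it ended, beside calls lost elsewhere too, those of *Col10a1* (adjusted p = 0.0667), *Hspa8* (0.0707), *Rgs5* (0.111) and *Hhip* (0.773), and put *Pth1r* (-0.98) and *Tead2* (0.93) under the fold. Residual growth plate was taken off by dissection in all groups, and the cut of the shaft was longer in c-Myc mice, so the cut and the genotype cannot be told apart.

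*H19* and *Igf2*, neighbours at an imprinted locus, fell, while *Grb10*, an imprinted gene of growth restraint, was not called (-0.33, or 0.49 by library totals). *H19*, a noncoding RNA, went from 38.4, 71.2, 119 and 32.4 CPM to 0.991 and 1.71 CPM, and *Igf2*, the fetal insulin-like growth factor beside it, from 77.5, 56.9, 23.3 and 21.9 CPM to 1.51 and 1.48 CPM, with log2 fold changes of -5.60 ± 0.70 (adjusted p = 0.000178) and -4.91 ± 0.65 (adjusted p = 0.000127). Of 19 tested members of the IGF system 9 were lower and 1 higher. *Igf2bp2*, which binds *Igf2* messenger RNA, was the higher one, from 7.70, 5.55, 4.21 and 13.8 CPM to 27.8 and 31.4 CPM.

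Over the lists of signalling, secretion, adhesion, immunity, stroma and position, 146 of 370 tested members were lower and 21 higher, with a median of -0.84, whereas by library totals 50 were lower and 61 higher, with a median of -0.01. Their share of all counts was 2.65 ± 0.199% (SD, n = 4) in juvenile and 2.62 ± 0.0943% (SD, n = 2) in c-Myc libraries. In the Wnt pathway, which builds bone, 19 of 43 were lower and 6 higher, or 12 and 12 by library totals. The ligand *Wnt4* went from 56.4, 40.6, 53.6 and 65.1 CPM to 4.44 and 4.20 CPM, a log2 fold change of -3.64 ± 0.25 (adjusted p = 1.72e-07). Other ligands rose: *Wnt10b* from levels between 4.58 and 7.73 CPM to 25.3 and 26.0 CPM, and *Wnt10a* from 0 in every juvenile library to 9.53 and 9.46 CPM, at least 21.8-fold higher. *Sfrp2*, a secreted Wnt binder, rose by 4.09. BMP and TGF-beta genes had 25 of 47 lower and 2 higher, or 10 and 4 by library totals. *Bmp1*, the protease that trims procollagen, fell (-1.99), *Gdf5*, a joint ligand, was at 1.04 to 3.34 CPM in juvenile libraries and 0 with c-Myc, at least 12.7-fold lower, and *Fstl3*, an activin trap, rose by 1.75.

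Hedgehog genes had 6 of 14 lower and 0 higher, with a median of -0.15. By library totals 0 were lower and 4 higher, with a median of 0.68. The lowest member, *Ihh* (-2.10), is also counted among the chondrocyte markers. *Gli1*, the readout of the pathway and a mark of metaphyseal progenitors, was at 21.8, 18.1, 20.2 and 8.08 CPM and 32.4 and 31.7 CPM, past the p threshold and under the fold required, at 0.90 ± 0.27 (adjusted p = 0.0131). *Ptch1*, the receptor, overlapped at 81.0 to 178 CPM in juvenile and 154 and 181 CPM in c-Myc libraries. *Hhip*, an antagonist, went from 15.1, 11.5, 9.88 and 2.87 CPM to 2.08 and 3.07 CPM and was called lower at -1.95 ± 0.55 (adjusted p = 0.00943), yet its lowest juvenile library lay between the c-Myc ones. Without c-Myc replicate 1 its adjusted p was 0.0951, and against juvenile replicate 4 alone its log2 fold change was -0.16. *Gli1* passed the fold without juvenile replicate 1 (1.05).

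Signals to other cells split. Of 26 genes that act on osteoclasts, vessels and nerves 9 were lower and 3 higher. *Tnfrsf11b* (osteoprotegerin), the decoy that blocks RANKL, went from 45.8, 33.6, 19.04 and 24.8 CPM to 5.38 and 4.43 CPM, a log2 fold change of -2.65 ± 0.35 (adjusted p = 3.69e-05). *Tnfsf11*, RANKL itself, was at 10.0, 8.38, 8.57 and 7.95 CPM and 6.09 and 4.73 CPM, under the fold required, and library totals turned its log2 fold change from -0.69 to 0.14. *Vegfb* rose from levels between 1.36 and 5.34 CPM to 15.5 and 12.6 CPM while *Vegfa* overlapped at 39.1 to 54.6 CPM in juvenile and 42.6 and 44.3 CPM in c-Myc libraries (-0.16, or 0.67 by library totals). *Ptger3*, a prostaglandin E receptor, was at 0 in all juvenile libraries and 6.56 and 8.10 CPM with c-Myc, at least 16.8-fold higher. *Ntn1*, netrin 1, fell (-3.33), and *Il11* was at 0 to 1.04 CPM in juvenile and 3.45 and 2.36 CPM in c-Myc libraries, a call lost without c-Myc replicate 1 (adjusted p = 0.115).

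Among receptors of growth signals, *Fgfr1* went from 450.0, 500.1, 529.5 and 554 CPM to 136 and 151 CPM, and *Pdgfra* (-1.85) and *Pth1r* (-1.08), the parathyroid hormone receptor, fell. *Acvr2b*, an activin receptor, rose by 1.02, a call lost without c-Myc replicate 2 (adjusted p = 0.131) and, under the fold, without juvenile replicate 1 or 4 (0.895 and 0.898). FGF genes as a list had 9 of 16 lower and 0 higher, or 2 and 2 by library totals. Notch genes had 2 lower and 2 higher of 19, shares below the 16.0% and 18.4% of all genes tested. YAP and TEAD genes had 5 lower and 1 higher of 18, the higher one being *Tead2* (1.18). Of 29 adhesion and junction genes 17 were lower and 1 higher, or 4 and 4 by library totals, with *Gja1* (connexin 43), which couples osteoblasts to osteocytes, at -1.56. Of 22 immediate early genes 8 were lower and 1 higher, or 1 and 3 by library totals (median -0.59, or 0.26). *Dusp1*, a phosphatase that ends MAP kinase signals, went from 154, 213, 200.1 and 196 CPM to 34.6 and 40.0 CPM. *Fosl1*, at 0 to 1.75 CPM in juvenile and 3.78 and 7.09 CPM in c-Myc libraries, was the higher one and lost its call without c-Myc replicate 2 (adjusted p = 0.0759).

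Of 30 interferon and MHC class I genes 8 were lower and 2 higher, or 0 and 3 by library totals (median -0.84, or 0.01). *H2-D1*, a class I chain, fell (-1.39), and *Bst2* (tetherin) rose by 1.92. Complement genes had 8 of 15 lower and 0 higher. The lowest of them was *C1qtnf3* (-6.46), a C1q-related gene. Among juvenile libraries it was lowest in replicate 4, as was the sum of the cartilage genes. Of 22 marrow stromal and adipogenic genes 11 were lower and 2 higher. The lowest of these, *Snorc* (-7.11), is also counted among the chondrocyte markers. *Chrdl1*, a BMP antagonist, rose from levels between 5.60 and 10.8 CPM to 36.4 and 34.9 CPM, and *Lpl*, lipoprotein lipase, from levels between 12.1 and 23.8 CPM to 34.7 and 38.4 CPM (0.94 and not called without juvenile replicate 1). HOX genes, which record position along the body, had 4 of 20 lower and 2 higher. Over all genes tested the shares were 16.0% and 18.4%. *Hoxb2* fell (-2.44) and *Hoxa9* rose by 1.94.

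Markers of blood and endothelial cells, which the sort should remove, were low in both groups, and their part in the results was not tested. Of 20 leukocyte markers 8 were tested, 2 were called higher (*Lyz2*, up to 6.703 CPM, and *Ctss*, up to 0.661 CPM), and the list summed to 3.12 to 7.27 CPM in juvenile and to 15.1 and 18.3 CPM in c-Myc libraries. *S100a8*, *S100a9*, *Cd3e* and *Ms4a1* were at 0 throughout. *Ptprc* (CD45), *Adgre1* and *Itgam* had 0 counts in juvenile libraries and 12, 17 and 15 in the c-Myc libraries together. Of the 8 tested, 7 had a positive log2 fold change and 1 a negative one. Of 14 endothelial markers 5 were tested, 1 was higher (*Egfl7*, 6.14 and 7.74 CPM) and 2 lower, with sums of 13.7 to 22.7 and 16.5 to 18.1 CPM. *Cdh5*, *Emcn* and *Pecam1* (CD31) had 1, 7 and 17 counts in the c-Myc libraries and 0 in the juvenile ones. Of the 5 tested, 2 had a positive log2 fold change and 3 a negative one. Of 12 erythroid markers 1 was tested and not called, of 10 adipocyte markers 2 were tested and not called, of 12 skeletal muscle markers 1 of 2 tested was lower, and of 12 osteoclast markers 2 of 5 tested were lower. Among 11 smooth muscle and pericyte markers 9 were tested, 3 were lower and 1 higher (*Rgs5*, at 0 to 3.02 CPM in juvenile and 16.3 and 22.1 CPM in c-Myc libraries). Of 13 osteoblast markers 10 were lower and 0 higher, with a median of -1.92, and *Alpl*, *Ibsp* and *Sp7* were all above 100 CPM in every library. Sex also differed. *Xist*, the RNA of the inactive X chromosome, was at 0 to 0.782 CPM in juvenile libraries, 0.0472 CPM in c-Myc replicate 1 and 243 CPM in c-Myc replicate 2. Without c-Myc replicate 2, 2024 genes were higher and 1659 lower, of which 1959 and 1585 were among those called with it.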

How the data were processed

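Bulk RNA-seq counts per gene were deposited by the authors as 1 table of raw counts, with no normalisation. Per the submitters' processing notes, reads were handled with bcl2fastq 2.20, cutadapt 4.6, STAR 2.7.11a and HTSeq 2.0.5 on mm10. The strand setting of the counting was not given in the sources used here, so overlapping and antisense genes cannot be separated. Libraries of 3 groups (4 juvenile, 2 c-Myc and 2 that added *Trp53-LSL-R172H* to c-Myc) were fitted with edgeR 4.0.16 in R 4.3.3 (TMM, filterByExpr by group, robust quasi-likelihood fit, Benjamini-Hochberg adjustment over 12588 genes), and c-Myc was contrasted with juvenile. SEs were derived by dividing the fitted change by the root of its F statistic. The steps were also run on simulated data with few changed genes, balanced up and down. Those data lacked the shift in abundant genes seen here, so they do not test the scaling. The 4 adult libraries entered only the range over all 12 libraries and 1 alternative fit.

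The comparison and the gene lists were chosen with earlier results of these data known. The genes named are well-known genes of growth, bone and cartilage, the 12 steepest gains and losses at 20 CPM or more without overlap, the 6 largest gains and losses of mean CPM, and the extremes, most counted and contrary members of each list. A few more promoter examples, markers and partners were chosen after their values were seen, and some genes are not reported here. Against a group at 0, a bound was set at 3 counts per library, which covers counting error only. No library was a copy of another, as counts of replicates were further apart than sampling allows (chi-square per degree of freedom 10.2 to 34.4). Shares were compared by exact permutation tests. Promoter windows were RefSeq sequences on GRCm38.p6, and of the 2028 genes with more than 1 window the first was used. Alternatives were other scalings and filters, DESeq2 1.42.0, other sets of libraries, the replicate number as a block, each library left out and, added after seeing the data, juvenile replicate 4 as the only juvenile library.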

Additional observations from a re-analysis of the deposited data

Results flagged for a closer look

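Among the 4 juvenile libraries, 1 library stood apart from the others for 10 of the 176 genes examined, by the gap to its nearest neighbour over the group's range, a rule that chance meets in about 1 of 20 groups. Replicate 3 was the highest for *Eif4g1* (603 CPM, next 513), *Ccne1* (4.65, next 1.69), *Sdf2l1* (8.14, next 2.50) and *P4hb* (1240, next 1210), and the lowest for *Parp1* (33.9, next 43.0) and *Pes1* (24.4, next 33.5). Replicate 1 was the highest for *Cycs* (5.46 CPM, next 3.37) and *Cdk4* (80.1, next 73.6), and the lowest for *CreERT2* (53.5, next 70.8). Replicate 4 was the highest for *Msx2* (2.61 CPM, next 0.871). For all 10 genes both c-Myc libraries lay outside the juvenile range.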

How the results depend on the processing

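Library totals gave 5234 genes higher and 700 lower, dropping the fold requirement gave 3577 and 3149, and requiring a log2 fold change of 2 gave 949 and 724. The other alternatives stayed within 1.5 times of 2320 and 2010. With 1 library left out, between 1899 and 2403 genes were higher and between 1540 and 2082 lower. Deviations of same-numbered juvenile and c-Myc libraries correlated at 0.058 and -0.043. With 2 c-Myc libraries the deviations mirror each other, so these values cannot exclude pairing. Same-numbered c-Myc libraries and libraries that added *Trp53-LSL-R172H* correlated at 0.175, and those of different number at -0.175. With *Trp53-LSL-R172H*, *Xist* was at 0.192 CPM in replicate 1 and 226 CPM in replicate 2. With the replicate number as a block, 2400 genes were higher and 2133 lower, of which 2116 and 1845 were shared with the fit without it.

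Of 156 named genes called, 114 kept their call under every alternative that tested them. Apart from *Xist* (9.35 with no library left out, -1.72 without c-Myc replicate 2), signs that turned belonged to values near 0 or to scaling. By library totals *EGFP* was at 0.67, *Sp7* 0.017, *Slc38a2* 0.26, *Ccnd2* 0.8, *Runx2* 0.12, *Grb10* 0.489, *Hspa5* 0.80, *Tnfsf11* 0.14 and *Vegfa* 0.67. By the same scaling the medians were 0.74 for the cholesterol and fatty acid synthesis list, 0.52 for the BCL2 family, 0.017 for osteoblast lineage transcription factors, 0.68 for the Hedgehog pathway, 0.67 for the Notch pathway, 0.062 for YAP, TEAD and their targets, 0.26 for immediate early genes, 0.014 for interferon response and MHC class I, 0.21 for ER secretion and unfolded protein response, and 0.22 for smooth muscle and pericyte markers. *Cdkn1a* was at -7e-04 with RLE factors, -0.065 with upper-quartile factors, -0.0061 with juvenile and c-Myc libraries only and -2e-04 with DESeq2, and between -0.055 and 0.048 with 1 library left out, negative without juvenile replicate 1 or c-Myc replicate 2 (-0.015). With no filter on low counts *Ccnd2* was at 0.011 and *Hspa5* at 0.02. With the block *EGFP* was at 0.096, *Ccnd2* at 0.075 and *Hspa5* at 0.0037. With 1 library left out *Ccnd2* ranged from -0.12 to 0.074 and *Hspa5* from -0.12 to 0.085. *Xist* ranged from -1.72, without c-Myc replicate 2, to 13.8, the HOX genes' median from -0.031 to 0.23 and that of the cholesterol and fatty acid synthesis list from -0.14 to 0.01. Against juvenile replicate 4 alone *Hspa5* was at 0.28, *Vegfa* at 0.16 and *Grb10* at 0.0063, and the medians were 0.45 for cholesterol and fatty acid synthesis, 0.008 for the BCL2 family and 0.15 for the Hedgehog pathway. The cause of these turns was not tested, other than that library totals shift the median of all genes to 0.87. With 2 c-Myc libraries, no exact permutation p under 0.133, with the smaller tail doubled, was possible for a single measure.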

Other observations

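Gene families that share a symbol stem, chosen after seeing the data, were counted as well. Over all genes tested, 18.4% were higher and 16.0% lower. Of 54 tested histone genes (*Hist*), 46 were higher and the median log2 fold change was 2.61. Of 15 host genes of small nucleolar RNAs (*Snhg*), 13 were higher with a median of 2.07. Protocadherins (*Pcdh*), adhesion molecules best known in neurons, had 23 of 48 lower and 0 higher with a median of -1.68. Potassium channels (*Kcn*) had 13 of 28 lower and 6 higher with a median of -1.50, and semaphorins (*Sema*), guidance signals for axons and vessels, had 10 of 16 lower and 0 higher with a median of -1.44. Zinc finger proteins (*Zfp*) were the largest family, at 37 of 322 lower and 21 higher with a median of -0.25. Both shares are below those of all genes tested. Solute carriers (*Slc*) had 53 of 214 lower and 28 higher. Overlapping counts between near copies within the histone and protocadherin families make single members uncertain.

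Of all genes called, 1784 of those higher and 1676 of those lower were in none of the gene lists. Of 505 noncoding genes tested, 74 were higher and 40 lower, shares below the 18.4% and 16.0% of all genes tested.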
